A study of Amorphotheca resinae with 20 samples.

Results

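The transcript response of Amorphotheca resinae ZN1 to acetic acid was measured in 4 of the 20 RNA libraries of the study, taken by their treatment labels. Mycelia of the wild type strain ZN1, a filamentous fungus, grew at 28 °C on potato-dextrose agar and were collected at 4 h. The compared groups were acetic acid at 2.0 g/L (2 libraries) and the control of the weak acid experiment (2 libraries). Formic acid at 4.0 g/L (2 libraries) was counted in the same table against the same control libraries. The other 14 libraries covered furans and phenolic aldehydes with their own controls. The labels say that assays were done in duplicate but not whether the 2 libraries of a group came from separate cultures, so p-values measure the spread between these libraries, which may be technical.

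Acetic acid is freed from the acetyl groups of hemicellulose when plant biomass is pretreated. Its undissociated form crosses the plasma membrane and releases a proton in the cytosol. Fungi expel such protons with a plasma membrane H+-ATPase, and acetate can be activated to acetyl-CoA and fed into the glyoxylate cycle. In Saccharomyces cerevisiae the ABC transporter Pdr12 carries weak acid anions out of the cell. The count tables do not pair their identifiers with gene names or product descriptions, so the genes for these functions are not followed here, and genes are given by identifier without a role. For the same reason no marker gene was used to check the mycelial label.

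The acetic acid libraries held 16430097 and 18093936 read counts, and the control libraries 18275236 and 19657606. The 2 libraries of a group ranked the tested genes almost alike, with Spearman's rho of 0.992 for acetic acid and 0.991 for the control. Over the 11223 genes with a mean of at least 10 CPM (read counts scaled to a common library size) across the 6 weak acid libraries, the log2 difference between the 2 libraries had an SD of 0.262 for acetic acid and 0.279 for the control. RNA was measured in bulk, so a change in the make-up of the mycelium and a change of transcript per cell cannot be told apart.

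The question was which genes respond to acetic acid, and by how much. In response to it, transcript levels changed broadly but mostly by small amounts, as the plot of fold change against level shows. Of 16714 genes tested, 6341 (37.9%) were called changed at an adjusted p under 0.05 (edgeR quasi-likelihood test, Benjamini-Hochberg). Of these, 3285 (19.7% of the genes tested) rose and 3056 (18.3%) fell. The median log2 fold change of all tested genes was −0.01, a centre that the scaling of the libraries places near 0. Both directions are relative to that centre, and a shift of all transcripts together could not be seen. Without acetic acid replicate 2, 3816 genes were called, 1980 higher and 1836 lower. The 2 acetic acid libraries lay on one side of both control libraries in 6333 of the 6341 called genes, and in 11565 (69.2%) of all tested genes.

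**Figure D1:**
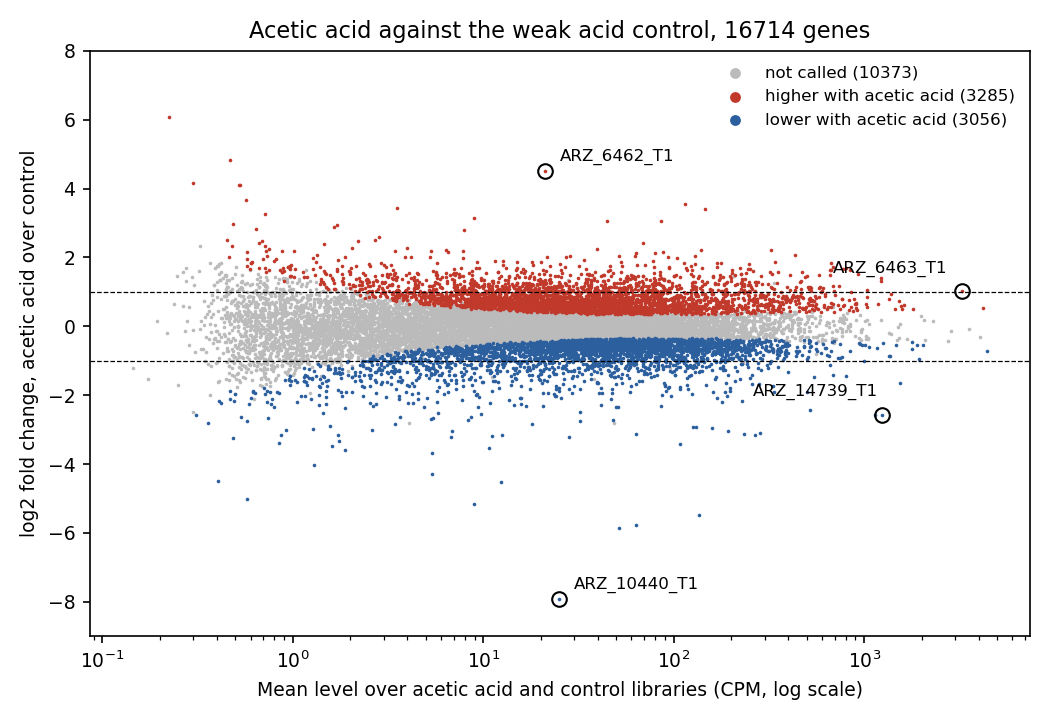
Log2 fold change of acetic acid over control against the mean level over the 4 libraries (CPM, log axis), 1 point per tested gene. Red points were called higher (3285), blue points lower (3056) and grey points were not called (10373); dashed lines mark 2-fold, and circles mark the 4 named genes.

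Genes were eligible for naming if called, changed at least 2-fold, with a mean of at least 10 CPM in either group and no overlap. Among the eligible genes, ARZ_6462_T1 had the largest rise. Its level was 39.6 and 41.6 CPM in the acetic acid libraries, against 1.59 and 1.96 CPM in the control libraries, and the groups did not overlap. Those levels rest on 664 and 758 reads with acetic acid and 30 and 39 reads in the control. The rise was 22.8-fold, a log2 fold change of 4.51 ± 0.20 (SE; 95% interval 4.09 to 4.93; edgeR quasi-likelihood adjusted p = 9.26e-11).

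ARZ_6463_T1, the next identifier number, had the largest gain in CPM among the eligible genes. Genes that rose by less than 2-fold were outside this ranking. It stood at 4374 and 4355 CPM with acetic acid, against 1848 and 2456 CPM in the control, a gain of 2213 CPM. Its acetic acid libraries were close together and its control libraries spread more widely, without overlap. The log2 fold change was 1.02 ± 0.20 (95% interval 0.60 to 1.44; edgeR quasi-likelihood adjusted p = 0.000713). Without control replicate 1 it was 0.82, which is under 2-fold.

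ARZ_10440_T1 had the largest fall among the eligible genes. It was nearly absent with acetic acid, at 3 and 4 reads (0.179 and 0.220 CPM), against 677 and 1268 reads (35.8 and 63.6 CPM) in the control. The control libraries differed from each other, but both lay far above both acetic acid libraries. The summed reads were 7 with acetic acid and 1945 in the control. Scaled by library size, they give a 250.3-fold lower level with an exact 95% interval of 121 to 623, which covers counting error only. The fitted log2 fold change was −7.91 ± 0.48 (edgeR quasi-likelihood adjusted p = 1.11e-06).

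ARZ_14739_T1 lost the most CPM among the eligible genes. Its level was 487 and 223 CPM with acetic acid, against 1894 and 2339 CPM in the control, a difference of −1761 CPM. The acetic acid libraries were further apart in proportion than the control libraries, and the groups did not overlap. The log2 fold change was −2.58 ± 0.30 (95% interval −3.23 to −1.92; edgeR quasi-likelihood adjusted p = 4.70e-05). It was −3.24 without acetic acid replicate 1 and −2.12 without acetic acid replicate 2.

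**Figure D2:**
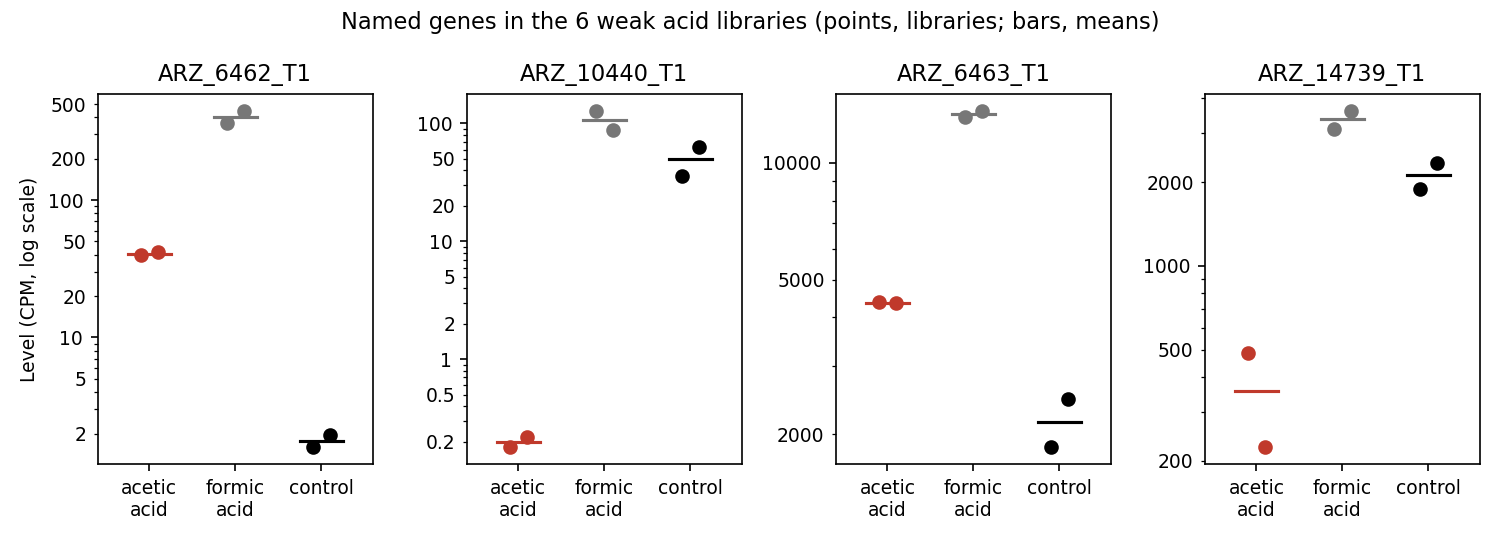
Levels of the 4 named genes (CPM, log axis) in the acetic acid, formic acid and control libraries of the weak acid experiment. Points are libraries and bars are means of 2; ARZ_6462_T1 and ARZ_6463_T1 lie above the control with acetic acid, and ARZ_10440_T1 and ARZ_14739_T1 lie below it.

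The same 4 genes had other levels with formic acid, whose dose was 4.0 g/L and whose control libraries are the same. ARZ_6462_T1 averaged 40.6 ± 1.44 CPM with acetic acid, 405 ± 58.2 CPM with formic acid and 1.77 ± 0.261 CPM in the control (mean ± SD, n = 2 each, as for the levels that follow). ARZ_6463_T1 averaged 4365 ± 13.2 CPM with acetic acid, 13401 ± 323 CPM with formic acid and 2152 ± 430 CPM in the control. For both of these genes every acid library lay above both control libraries. ARZ_10440_T1 averaged 0.199 ± 0.0288 CPM with acetic acid, 108 ± 28.8 CPM with formic acid and 49.7 ± 19.7 CPM in the control. ARZ_14739_T1 averaged 355 ± 187 CPM with acetic acid, 3355 ± 353 CPM with formic acid and 2116 ± 314 CPM in the control. These 2 genes were below the control with acetic acid and above it with formic acid in every library.

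The other experiments of the study were each scaled within their own table and are given here as values with no test. In them, each of the 4 genes also stood apart from its controls with some or all of the treatments. ARZ_10440_T1 averaged 0.170 ± 0.240 CPM with vanillin, 0.156 ± 0.0452 CPM with syringaldehyde and 0.962 ± 0.482 CPM with furfural. With HMF (5-hydroxymethylfurfural) it averaged 3.84 ± 0.644 CPM and with 4-hydroxybenzaldehyde 18.4 ± 3.42 CPM. Its controls there averaged 59.7 ± 9.16 CPM (phenolic aldehydes) and 36.3 ± 11.4 CPM (furans), above all 5 of these treatments. ARZ_6462_T1 averaged 4.11 ± 0.0410 CPM with furfural and 1.17 ± 0.270 CPM with HMF, against 1.11 ± 0.0873 CPM in the furan control. The furfural libraries lay above both of their controls, and the HMF libraries overlapped them. With 4-hydroxybenzaldehyde it averaged 3.19 ± 0.465 CPM, with syringaldehyde 2.80 ± 1.75 CPM and with vanillin 1.83 ± 0.479 CPM, against 2.10 ± 0.445 CPM in the phenolic aldehyde control. The 4-hydroxybenzaldehyde libraries lay above both of these controls, and the syringaldehyde and vanillin libraries overlapped them.

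ARZ_6463_T1 averaged 2045 ± 279 CPM with furfural and 1508 ± 134 CPM with HMF, against 1017 ± 131 CPM in the furan control, and all 4 treated libraries lay above both controls. With 4-hydroxybenzaldehyde it averaged 2683 ± 7.78 CPM, with vanillin 1753 ± 120 CPM and with syringaldehyde 1418 ± 213 CPM, against 1780 ± 3.70 CPM in the phenolic aldehyde control. The 4-hydroxybenzaldehyde libraries lay above these controls and the syringaldehyde libraries below them. ARZ_14739_T1 averaged 970 ± 11.8 CPM with furfural and 1287 ± 286 CPM with HMF, against 1603 ± 275 CPM in the furan control. Both furfural libraries lay below both controls, and the HMF libraries overlapped them. With syringaldehyde it averaged 2949 ± 1636 CPM, with 4-hydroxybenzaldehyde 2347 ± 336 CPM and with vanillin 1878 ± 129 CPM, against 2092 ± 102 CPM in the phenolic aldehyde control. The vanillin libraries lay below both of these controls, and the syringaldehyde and 4-hydroxybenzaldehyde libraries overlapped them.

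Most called genes changed less than 2-fold. Among the genes that rose, 869 changed under 1.5-fold, 1504 by 1.5 to 2-fold, 850 by 2 to 4-fold, 48 by 4 to 8-fold and 14 by 8-fold or more. Among the genes that fell, the numbers in the same classes were 989, 1320, 633, 83 and 31. Rises were thus more numerous between 2 and 4-fold, and falls above 4-fold. The median log2 fold change was 0.77 among genes called higher, and the median fall among genes called lower was 0.70. In all, 912 genes (5.46% of those tested) rose and 747 (4.47%) fell at least 2-fold; without control replicate 1 these counts were 786 and 783.

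**Figure D3:**
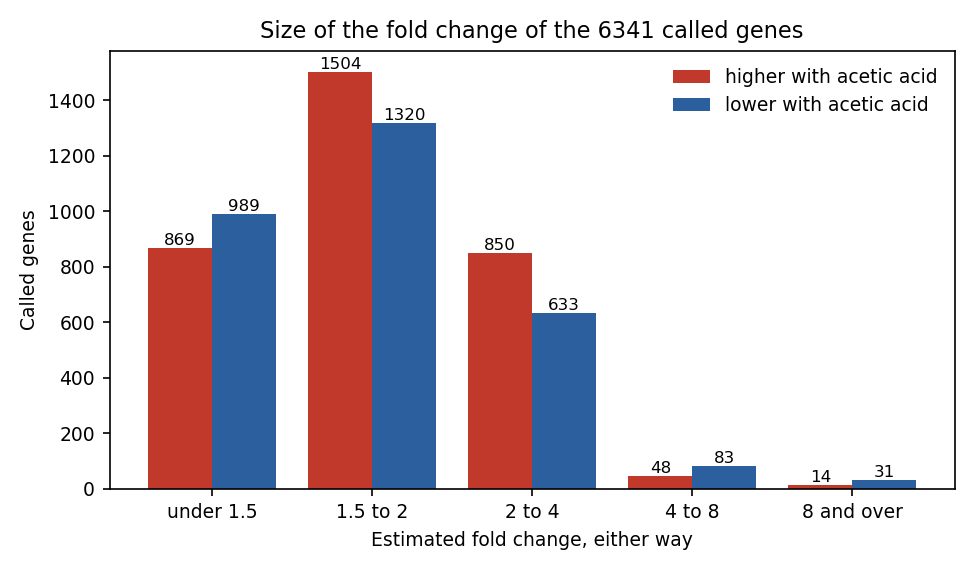
Number of called genes by size of the estimated fold change, with genes higher with acetic acid in red and genes lower in blue. The class from 1.5 to 2-fold is the fullest in both directions, with 1504 and 1320 genes, and above 4-fold the genes that fell are more numerous.

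A test against a threshold of 2-fold, rather than against no change, left 274 genes (1.64%), of which 117 (0.700%) were higher and 157 (0.939%) lower (edgeR glmTreat, adjusted p under 0.05). ARZ_6462_T1, ARZ_10440_T1 and ARZ_14739_T1 passed it (glmTreat adjusted p from 8.49e-10 to 0.00313), and ARZ_6463_T1 did not. The excess of falls was not kept in every omission of a single library: rises outnumbered falls without control replicate 2. Falls outnumbered rises without control replicate 1, without acetic acid replicate 1 and without acetic acid replicate 2. Of the 274 genes, 93 passed in the full fit and also without each of the 4 libraries in turn, 26 of them higher and 67 lower. At the other end, 10271 genes (61.5%) had a 95% interval of the fold change lying wholly within 2-fold. For the remaining 6169 genes (36.9%) neither statement could be made with 2 libraries a group.

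The share of genes called grew with level, and precision grew up to the class of 100 to 1000 CPM. Among 968 tested genes with a mean under 1 CPM over the 4 libraries, 47 rose and 38 fell (8.78% called), and every one of these calls was at least 2-fold. Among 4550 genes at 1 to 10 CPM, 592 rose and 521 fell (24.5% called). Among 8849 genes at 10 to 100 CPM, 2033 rose and 1825 fell (43.6%). Among 2290 genes at 100 to 1000 CPM, 596 rose and 655 fell (54.6%), and of the 57 genes at 1000 CPM or more, 17 rose and 17 fell (59.6%). The median SE of the log2 fold change was 0.62 in the lowest class, 0.29 at 1 to 10 CPM, 0.15 at 100 to 1000 CPM and 0.18 at 1000 CPM or more. The interval lay within 2-fold for 0 genes under 1 CPM, so small changes of such low genes were not detectable at this depth. It lay within 2-fold for 40.5% of genes at 1 to 10 CPM and 76.3% at 10 to 100 CPM. At 100 to 1000 CPM this share was 71.75%, and at 1000 CPM or more 64.9%.

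**Figure D4:**
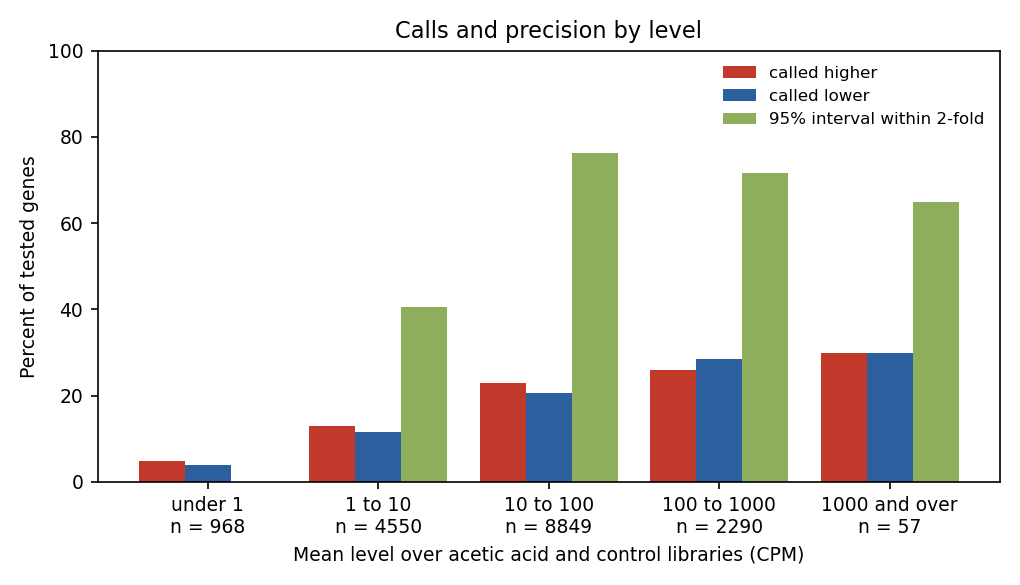
Percent of tested genes called higher (red), called lower (blue) and with a 95% interval of the fold change within 2-fold (green), by mean level over the acetic acid and control libraries. Calls rise from 8.78% of 968 genes under 1 CPM to 59.6% of 57 genes at 1000 CPM or more, with similar shares in both directions.

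Acetic acid replicate 2 lay farther from the control mean than replicate 1. Over the 11223 genes with a mean of at least 10 CPM, the log2 ratio to the control mean (pseudocount 0.5 CPM) had an SD of 0.679 in replicate 2 and 0.566 in replicate 1. Of the 5168 called genes among them, replicate 2 was the farther one in 3911 (75.7%). The genes called in the same direction in the full fit and again without each of the 4 libraries in turn numbered 3173, with 1641 higher and 1532 lower. Of those, 746 were at least 2-fold higher and 579 at least 2-fold lower. ARZ_6462_T1, ARZ_6463_T1, ARZ_10440_T1 and ARZ_14739_T1 kept their call and direction under each of these omissions.

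Genes seen in one group only were few and weakly counted. With at least 10 reads in each acetic acid library and no read in either control library there were 0 genes, and with at least 10 reads in each control library and no read with acetic acid there were also 0. With at least 1 read in both libraries of one group and none in the other, 66 genes were seen only with acetic acid and 65 only in the control.

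The genes that rose at least 2-fold held 9.06% and 10.5% of the tested counts in the acetic acid libraries, against 3.65% and 4.31% in the control libraries. The genes that fell at least 2-fold held 2.29% and 1.86% with acetic acid, against 5.63% and 6.20% in the control. These genes were chosen on the same 4 libraries, so the shares describe the size of the shift and test nothing. In the formic acid libraries, which are compared with the same control, the first set held 8.95% and 9.04% and the second 4.05% and 4.37%. The 10373 genes not called held 47.8% and 46.6% of the counts with acetic acid, against 49.1% and 47.9% in the control.

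Some genes that changed in the same direction had consecutive identifier numbers. Of 671 genes that fell at least 2-fold and whose next number was tested, 65 (9.69%) were followed by another such fall, while 4.47% of all tested genes fell that far. Of 843 genes that rose at least 2-fold, 67 (7.95%) were followed by another such rise, against 5.46% of all tested genes. A change of that size in the opposite direction followed 26 of the falls (3.87%, against 5.46% of all tested genes) and 24 of the rises (2.85%, against 4.47%). These are descriptions with no test, and the files give no coordinates, so whether consecutive numbers stand for neighbouring genes is not known.

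Runs were short. Rises formed 61 runs of 2 and 3 runs of 3 consecutive identifiers, and falls formed 44 runs of 2, 9 of 3 and 1 of 4. The run of 4 went from ARZ_16712_T1 to ARZ_16715_T1 and is named here after its values were seen. ARZ_16712_T1 was at 2.15 and 1.37 CPM with acetic acid, against 83.8 and 119 CPM in the control (log2 fold change −5.85 ± 0.24). ARZ_16713_T1 was at 2.86 and 2.25 CPM with acetic acid, against 20.3 and 25.1 CPM in the control (−3.15 ± 0.22). ARZ_16714_T1 and ARZ_16715_T1 fell less, by log2 fold changes of −1.12 ± 0.15 and −1.27 ± 0.20. Without acetic acid replicate 2, ARZ_16714_T1 was at −0.93, under 2-fold, and the run of 4 was broken. Adjusted p-values of the 4 genes ran from 3.60e-11 to 0.00011 (edgeR quasi-likelihood).

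Around the named genes the picture was mixed, beside shares of 19.7% called higher and 18.3% called lower over all tested genes. Among the 18 tested identifiers within 10 numbers of ARZ_6462_T1, 4 were called higher, ARZ_6463_T1 among them, and 4 lower. Among the 13 tested within 10 numbers of ARZ_10440_T1, 6 were called lower, 3 of them at least 2-fold, and 2 higher. Among the 16 tested around ARZ_14739_T1, 1 was called higher and 2 lower.

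**Figure D5:**
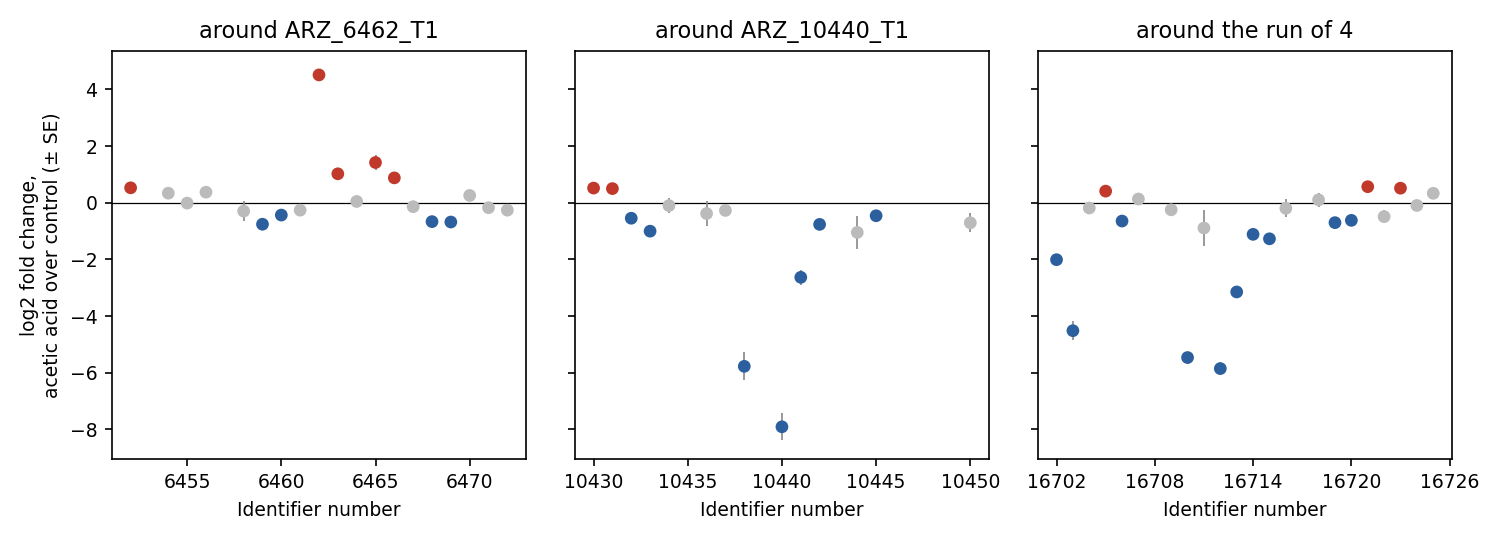
Log2 fold change of acetic acid over control (± SE) by identifier number around ARZ_6462_T1, ARZ_10440_T1 and the run of 4 from ARZ_16712_T1 to ARZ_16715_T1, with genes called higher in red, called lower in blue and not called in grey. Strong falls stand beside weak ones in the panels around ARZ_10440_T1 and the run, and gaps are identifiers that were not tested.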

How the data were processed

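The authors deposited whole-number read counts per identifier in 3 tables, each with the same 18830 identifiers. Per the labels' protocols, RNA was extracted with Trizol and sequenced from an Ion Proton RNA-Seq library kit. Aligner, counter and gene models: not given in the sources used here. Among genome builds, the submitters' processing notes list Sscrofa 10.2 alone, an assembly of the pig, although the samples are fungal. The handling of reads that match several near-identical genes is unknown, so values of such genes are uncertain. Of the 18830 identifiers, 0 matched a RefSeq table of 9642 genes (assembly Amore1, another strain).

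The weak acid counts were fitted over acetic acid, formic acid and control with edgeR 4.0.16 (R 4.3.3): filterByExpr (genes left out held 0.0246% of the counts), TMM scaling, a robust quasi-likelihood F-test, and Benjamini-Hochberg adjustment over all 16714 genes tested. CPM are scaled by TMM, and no gene lengths were used. The rankings by CPM change and the classes of level therefore compare genes by reads, not by number of transcripts. SE and 95% intervals come from the F statistics. The fold threshold was tested with glmTreat. The tests were checked on simulated counts. Genes were named by a rule: called, at least 2-fold, at least 10 CPM in a group and no overlap, then the largest fold and the largest CPM change in each direction. The comparison, lists and rules were chosen with earlier results of these data known. Alternatives were another scaling, other filters, DESeq2 1.42.0, only the 2 groups in the fit, a replicate block and the omission of single libraries, which gives the remaining library of that group the spread of the others. Replicates of a group differed by more than sampling noise and were counted separately. Figures were drawn with matplotlib 3.10.9.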

Additional observations from a re-analysis of the deposited data

How the results depend on the processing

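The log2 fold changes of the 4 named genes, and of 10 genes chosen after their values were seen, kept their direction in 140 of 140 values under the 10 alternatives. In the alternatives that kept all libraries, their adjusted p stayed under 0.05. A size of 2-fold was not always kept: ARZ_6463_T1 was at 0.82 without control replicate 1. Of 77 counts of genes, 69 stayed within 1.5 times. Leaving out 1 library gave 3816 to 5646 changed genes, 1980 to 2947 higher and 1836 to 2707 lower, and 112 to 310 beyond 2-fold, with 32 to 163 higher and 80 to 171 lower; the lowest counts of all came without acetic acid replicate 2. In all, 3173 of 6341 genes were called in the same direction in the full fit and without each library in turn. A minimum of 10 CPM in 2 libraries left 11748 genes to test, of which 496 fell at least 2-fold. DESeq2 called 5895 genes, and 5829 of them were calls of the edgeR fit in the same direction. With calls at any fold, 23.7% of rises were followed by a rise and 21.2% of falls by a fall, against 19.7% and 18.3% of all tested genes. With calls beyond 2-fold by glmTreat, the genes that rose held a mean of 2.15% of the counts with acetic acid and 0.644% in the control, and those that fell 0.531% and 2.23%. The labels state no shared batch for same-numbered libraries. Across 11223 genes the replicate differences correlated by 0.0880 between acetic acid and control. The value was 0.168 between formic acid and control and 0.00499 between the acids. With the replicate block 6482 genes were called. Depth limits the genes under 1 CPM.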

Other observations

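For 3 of the 4 named genes, a second identifier far off in number had nearly the same pattern. The identifiers are named here after their values were seen, and whether they are copies of one gene or share reads was not tested. Likeness was measured as Pearson's r of log2 CPM (pseudocount 0.5), centred within each experiment, over the 20 libraries, which share experiments and treatments. The closest identifier was sought only more than 20 numbers away, among identifiers with a mean of at least 5 CPM, so nearer ones could not be returned. In that search, the identifier most like ARZ_10440_T1 was ARZ_16710_T1 (r = 0.997), and that most like ARZ_14739_T1 was ARZ_18403_T1 (r = 0.980). That most like ARZ_6463_T1 was ARZ_11002_T1 (r = 0.964), and in all 3 pairs each was the closest to the other. The exception was ARZ_6462_T1, whose closest identifier, ARZ_4701_T1 (r = 0.945), was closer to another one and had a log2 fold change of 1.55 ± 0.16, against 4.51 ± 0.20 for ARZ_6462_T1. ARZ_18403_T1 stood at 445 and 210.2 CPM with acetic acid, against 1677 and 2245 CPM in the control (log2 fold change −2.58 ± 0.30). ARZ_11002_T1 stood at 1677 and 1806 CPM with acetic acid, against 559 and 841 CPM in the control (1.31 ± 0.21). Adjusted p-values of these 2 were 2.87e-05 and 0.000102 (edgeR quasi-likelihood). Each r was the highest over all identifiers searched. Of the 13256 identifiers searched, 4424 had a mutual closest partner, 1018 of them with r over 0.95.

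Of the identifiers near ARZ_10440_T1 and near the run from ARZ_16712_T1, 4 pairs that lie 6272 numbers apart fell together, and these pairs were picked because they did. ARZ_10438_T1 and ARZ_16710_T1 had log2 fold changes of −5.78 ± 0.49 and −5.46 ± 0.21, and ARZ_10440_T1 and ARZ_16712_T1 had −7.91 ± 0.48 and −5.85 ± 0.24. ARZ_10441_T1 and ARZ_16713_T1 had −2.63 ± 0.26 and −3.15 ± 0.22, and ARZ_10442_T1 and ARZ_16714_T1 had −0.77 ± 0.20 and −1.12 ± 0.15. All 8 were called lower with acetic acid, with edgeR quasi-likelihood adjusted p-values from 3.32e-11 to 0.00511. ARZ_16710_T1 had 5.90 and 6.04 CPM with acetic acid, 513 and 401 CPM with formic acid, and 225 and 303 CPM in the control. The r over 20 libraries was 0.983, 0.990, 0.930 and 0.696 for the 4 pairs in this order. Other pairs at the same distance in which both members were called went apart. ARZ_10430_T1 had 0.52 and ARZ_16702_T1 −2.01, and ARZ_10431_T1 had 0.50 and ARZ_16703_T1 −4.52. ARZ_10433_T1 was called lower and ARZ_16705_T1 higher (0.41). Pairs in which a member was not called could share a sign, such as ARZ_10437_T1 (−0.27) and ARZ_16709_T1 (−0.25). None of the 4 pairs was a pair of mutually closest identifiers in the search described above. ARZ_16712_T1 was closest to its partner ARZ_10440_T1 (r = 0.990), which was itself closest to ARZ_16710_T1. ARZ_16713_T1 was closest to ARZ_9258_T1 (r = 0.967) and ARZ_16714_T1 to ARZ_9865_T1 (r = 0.902).

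Such arrangements were also counted over all identifiers. Among 13256 identifiers with a mean of at least 5 CPM, the closest pattern more than 20 numbers away was sought for each. Where 2 consecutive identifiers each had a mutual closest partner with r over 0.95, which held for 93 such pairs, the partners also lay within 2 numbers of each other in 28 (30.1%). With mutual closest partners at any r this held for 59 of 1142 (5.17%), and it held for 125 of 10301 consecutive pairs (1.21%) over all 13256 identifiers. Among mutual partners, an arrangement whose partners were themselves consecutive was met from both sides and counted each time. The 28 and the 59 can therefore exceed the number of distinct arrangements, which was not counted. This is a description with no test.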
